A study of Danio rerio with 6 samples.

Results

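Transcription factors of blood stem and progenitor cells were followed in leukocytes from the kidney of zebrafish larvae, where fish make their blood cells. The set was given by name as 10 genes, taken as rows with an Ensembl gene ID whose symbol equals the name: myb, runx1, gata2b, tal1, lmo2, lyl1, meis1b, gfi1aa, hhex and zfpm1. Rows were found for 9 of the 10 among 27314 rows of the table, and lyl1 was not analysed here because its symbol matched no such row. The study compared MTZ with DMSO treatment in 3 libraries each, at 3.5 dpt and 9 dpf (days after fertilization), by Smart-seq2, a full-length cDNA method without molecular identifiers. Both groups carried the transgene Tg(coro1a:DenNTR), although the genotype label reads WT. In it the promoter of the leukocyte gene coro1a drives the photoconvertible protein Dendra2 with NTR, and MTZ, which together with NTR transgenes usually stands for metronidazole, is then a cell-killing drug in cells that make nitroreductase. Kidney cells were turned red with a 405-nm laser for 30 s, about 80 larvae were pooled, and 50 red cells were sorted for each library. The sort used colour alone, so stem and progenitor cells were not separated from other leukocytes, and fewer cells of a type cannot be told apart from less RNA per cell. Whether each library had its own pool of larvae is not stated in the labels, so the spread behind the p-values may be technical.

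These factors act together in blood formation. The bHLH factor tal1, the LIM protein lmo2 and GATA factors meet on DNA in a complex held together by ldb1 and E-proteins, and zfpm1 (FOG1 in mammals) is a cofactor of GATA factors. The factors runx1 and myb are needed for definitive stem and progenitor cells in zebrafish, gata2b lies upstream of runx1 in the endothelium from which those cells arise, and meis1b, hhex and gfi1aa are a TALE homeobox factor, another homeobox factor and a transcriptional repressor of the same early blood programme. Several of them also work outside stem cells: tal1, lmo2 and hhex in endothelium, zfpm1 in red cells and thrombocytes, and myb in many dividing blood cells.

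The libraries held between 14058382 and 20674280 counts, and values are given in CPM, for which counts were divided by the TMM-adjusted size of their library. On this scale 3 counts were worth between 0.149 and 0.233 CPM. All 10 leukocyte markers, among them coro1a whose promoter marked the sorted cells, were above 3 counts in all 6 libraries. They summed to between 8506 and 10172 CPM in MTZ and between 7919 and 11206 CPM in DMSO. This shows leukocyte RNA in each library, not that every sorted cell was a leukocyte. Of the markers of cells outside the sort, 7 of 10 kidney tubule genes were at 0 throughout, and the list summed to 42.8 CPM in DMSO 1, nearly all of it slc20a1a, and at most 0.270 CPM elsewhere. Endothelial genes summed to between 33.4 and 101 CPM in MTZ and between 5.33 and 84.8 CPM in DMSO. Of these, cdh5 and pecam1 were under 1 CPM in every library, kdrl was at 36.4 and tek at 38.0 CPM in DMSO 1, and tie1 at 88.6 CPM in MTZ 1. The gene etv2 was above 3 counts in 5 of the 6 libraries, with 33.0 CPM in MTZ 2 as its highest value. The gene egfl7 had 10.85, 0.0619 and 13.65 CPM in MTZ and none in DMSO. Liver genes summed to 502, 709 and 267 CPM in MTZ, against 31.6, 41.2 and 96.1 CPM in DMSO. Most of the MTZ sums was rbp4, with 468, 697 and 254 CPM, and 7 of the 15 liver rows were at 0 throughout. Single libraries stood apart in other lists. Skeletal muscle genes summed to 8421 CPM in DMSO 1 and to at most 26.0 CPM in each of the others, pancreatic genes to 730 CPM in MTZ 3 and at most 13.6 CPM elsewhere, and neutrophil genes to 12966 CPM in MTZ 1, 4408 in DMSO 1 and 4082 in DMSO 3 against between 131 and 402 CPM in the rest.

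**Figure D1:**
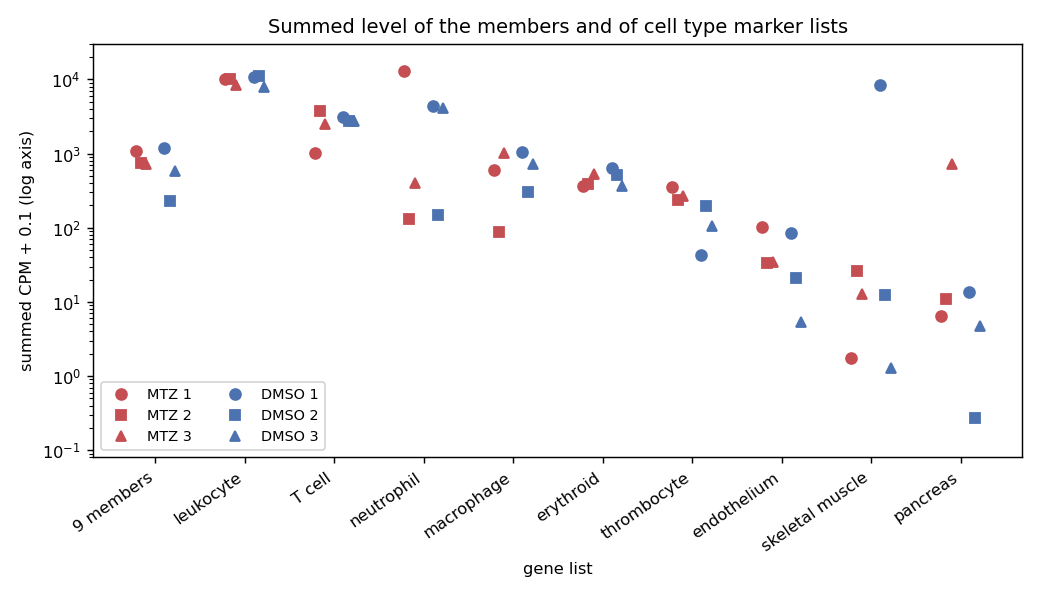
Summed CPM (log axis, 0.1 added) of the 9 stem and progenitor factors and of marker lists, 1 point per library, MTZ in red left of DMSO in blue. The leukocyte sums lie close together, while the muscle sum of DMSO 1 (8421 CPM) and the pancreatic sum of MTZ 3 (730 CPM) stand far above the other libraries.

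Between MTZ and DMSO, no stem and progenitor factor passed the test, and the libraries of the groups overlapped for all 9. Above 3 counts in all 6 libraries were 4 of the 9 factors, near the share of 51.9% among all genes tested. These were myb, lmo2, runx1 and tal1, the last with only 4 counts in DMSO 2. The genes meis1b, gata2b, zfpm1, gfi1aa and hhex each reached 77 counts or more in their highest library. Each of them had 3 counts or fewer in at least 1 other library. EdgeR's quasi-likelihood test called 0 of the 9, where it called 0% of the 10283 genes tested (smallest adjusted p = 0.9997). At an unadjusted p under 0.05 it held 0 of the 9, against 3.18% of all genes tested. DESeq2 called 0 of the 9 (1.33% of its genes called), edgeR without a filter on low counts 0 (0.29%), and limma voom 0 (0%). The groups did not overlap in 10.8% of the genes tested and in 0 of the 9 factors. The mean was higher in MTZ for 6 of the 9 by the sign of the fold change, against 50.9% of all genes. The median log2 fold change was 0.41 over the 9 and 0.02 over all genes. The median over the 9 was the value of gfi1aa, which had an SE of 2.59. It turned to -0.16 without DMSO 2, again the value of gfi1aa.

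**Figure D2:**
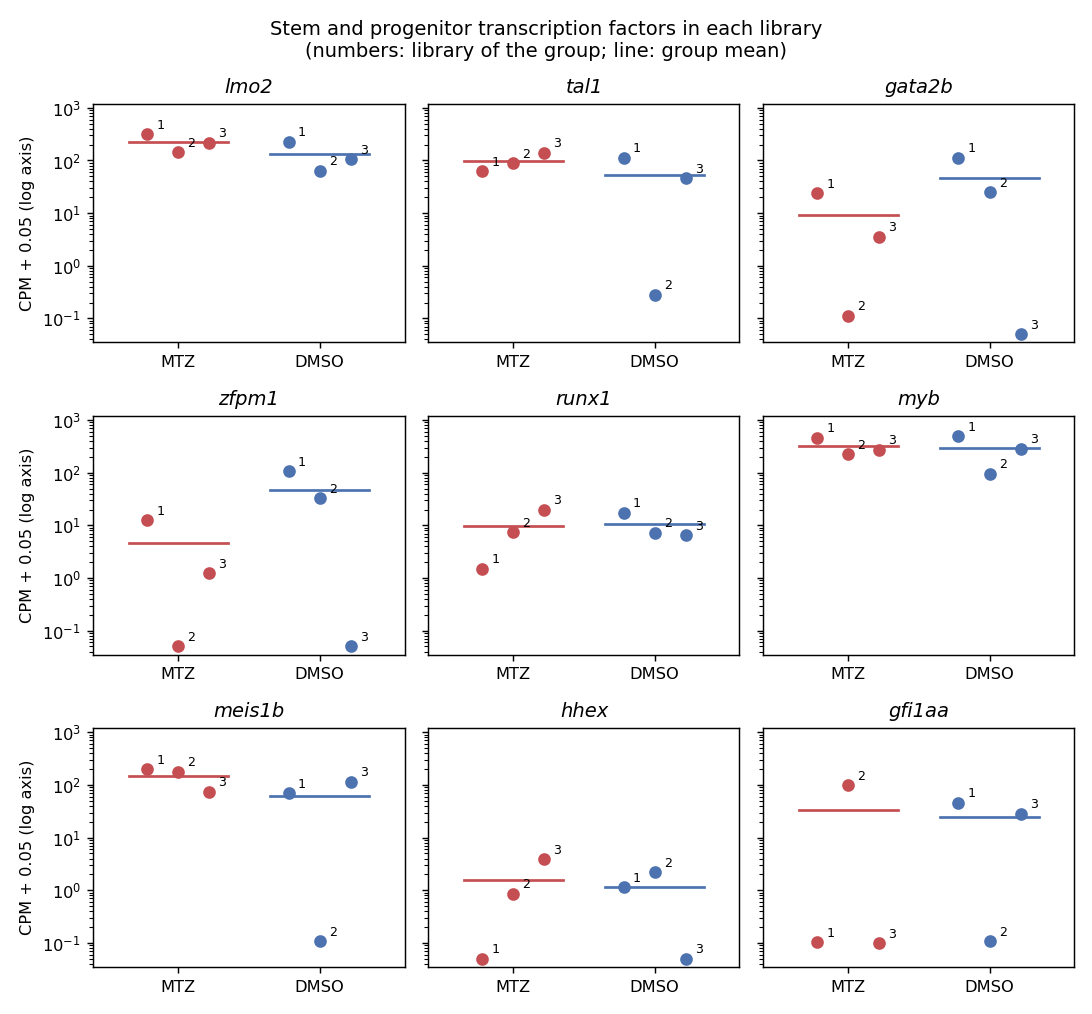
CPM of each factor in each library (log axis, 0.05 added), MTZ left of DMSO; numbers name the library of the group and lines show group means. The genes lmo2 and myb vary over less than 1 decade, while tal1 and meis1b are near the floor in DMSO 2 alone and gata2b and zfpm1 in MTZ 2 and DMSO 3.

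The LIM protein gene lmo2 (ENSDARG00000095019) and its DNA-binding partner tal1 (ENSDARG00000019930) had their lowest values in DMSO 2. For lmo2 the values were 316, 145 and 218 CPM in MTZ 1, 2 and 3, against 226, 63.7 and 106 CPM in DMSO 1, 2 and 3. DMSO 1 lay among the MTZ libraries and the other 2 DMSO libraries lay below all of them. For lmo2 the log2 fold change was 0.78 ± 0.53 (SE), with a 95% interval from -0.42 to 1.98 (edgeR adjusted p = 0.9997). It was 0.45 without DMSO 2 and 1.43 without DMSO 1. For tal1 the values were 62.3, 89.3 and 139 CPM in MTZ, against 113, 0.234 and 46.3 CPM in DMSO. All 3 MTZ libraries and DMSO 1 and 3 expressed tal1 at 704 counts or more, and DMSO 2 held 4 counts. MTZ over DMSO, tal1 had a log2 fold change of 0.86 ± 1.37, with an interval from -2.28 to 4.01 (edgeR adjusted p = 0.9997), and it was 0.29 without DMSO 2 and 2.08 without DMSO 1.

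Among the other parts of that complex, the adaptor ldb1a was also lowest in DMSO 2, a likeness picked out after the values were seen. It had 38.0, 91.6 and 79.9 CPM in MTZ, against 50.8, 0.702 and 71.1 CPM in DMSO. Its paralogue ldb1b was scattered, with 156, 354 and 0 counts in MTZ and 113, 0 and 1 counts in DMSO. The E-protein genes tcf3a, tcf3b and tcf12, whose products pair with tal1, were present in all 6 libraries, DMSO 2 included, where they had 8.71, 28.4 and 16.2 CPM. The log2 fold changes were -0.03 ± 1.87 for tcf3a, 0.57 ± 1.06 for tcf3b and 0.44 ± 1.04 for tcf12 (edgeR adjusted p = 0.9997 for each). Of the related LIM genes, lmo4a reached 30.3 CPM in DMSO 1 and at most 0.928 CPM in any other library, and lmo1 was at 0 in all of them. The tal1 relative tal2 had a single count.

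The stem cell GATA factor gene gata2b (ENSDARG00000009094) and the GATA cofactor gene zfpm1 (ENSDARG00000041572) occurred in the same libraries. For gata2b the values were 24.1, 0.0619 and 3.53 CPM in MTZ, against 112, 24.9 and 0 CPM in DMSO. For zfpm1 they were 12.6, 0 and 1.19 CPM in MTZ, against 106.9, 33.0 and 0 CPM in DMSO. Both genes were highest in DMSO 1, then DMSO 2, MTZ 1 and MTZ 3, and both were at 1 count or 0 in MTZ 2 and DMSO 3. This likeness was picked out after the values were seen. DMSO 1 held 68.1% of the summed CPM of gata2b and 69.5% of that of zfpm1. It was also the library with muscle transcripts, kdrl, slc20a1a and the skin keratin genes krt4, krt5 and krt91 (102, 84.5 and 155 CPM). Of the same skin list, krt8, krt18 and cldni were highest in MTZ 2 (200, 208 and 150 CPM), against 106, 162 and 2.3 CPM in DMSO 1. The whole skin list summed to 309, 558 and 186 CPM in MTZ, against 752, 122 and 123.5 CPM in DMSO. The part of such transcripts in the values of gata2b and zfpm1 was not tested.

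The differences of this pair were the 2 lowest of the set and among its widest. The log2 fold change was -2.31 ± 2.47 for gata2b, with an interval from -7.96 to 3.35, and -3.34 ± 2.72 for zfpm1, with an interval from -9.57 to 2.89 (edgeR adjusted p = 0.9997 for both). Without DMSO 1 the values were -0.42 and -1.83, and without MTZ 1 they were -4.65 and -6.25. The paralogue gata2a (ENSDARG00000059327) had 440, 0 and 9 counts in MTZ and none in DMSO, so of the 3 libraries with the most gata2b only MTZ 1 also held gata2a above 3 counts. The erythroid and thrombocyte factor gata1a, another partner of zfpm1, had 0.0540, 0 and 42.2 CPM in MTZ, against 0, 36.6 and 38.1 CPM in DMSO. It was absent from DMSO 1, where zfpm1 was highest, and present in DMSO 3, where zfpm1 was at 0. Other erythroid genes were divided. The globin row hbae1.3 (ENSDARG00000088330) had 348, 357 and 421 CPM in MTZ, against 524, 435 and 285 CPM in DMSO. The genes alas2, hbaa1 and hbba2 were at 0 throughout. In DMSO 1 klf1 had 17.88 CPM and slc4a1a 33.98 CPM, and each had 1 count or none elsewhere. The gene epor had 38.88 CPM in MTZ 3, 32.58 CPM in DMSO 1 and 21.63 CPM in DMSO 2, and none elsewhere. The gene tfr1a had 19.29 CPM in DMSO 2 and 18.81 CPM in DMSO 3, less in DMSO 1 and none in MTZ. Whether zfpm1 went with red-cell transcripts was not tested. The T cell GATA factor gata3 had 2.43, 143 and 75.5 CPM in MTZ, against 121, 381 and 203 CPM in DMSO (log2 fold change -1.67 ± 1.08, edgeR adjusted p = 0.9997), with DMSO 2 as its top library.

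The runt-domain gene runx1 (ENSDARG00000087646) was seen in every library at low level. It had 1.46, 7.42 and 19.6 CPM in MTZ, against 17.5, 7.19 and 6.51 CPM in DMSO. MTZ held both the lowest and the highest library, from 27 to 395 counts, and the DMSO libraries lay between them. Its log2 fold change was -0.13 ± 1.94, with an interval from -4.58 to 4.32 (edgeR adjusted p = 0.9997). With a library left out it lay between -1.23 (without MTZ 3) and 0.48 (without DMSO 1). Its binding partner cbfb had 167, 165 and 68.8 CPM in MTZ, against 60.9, 117 and 159 CPM in DMSO, and MTZ 1, the lowest library for runx1, was the highest for cbfb. The paralogue runx3, known for roles in T cells and NK cells in mammals, had 92.8, 248 and 106 CPM in MTZ, against 175, 195 and 421 CPM in DMSO (log2 fold change -0.82 ± 0.51, interval from -1.99 to 0.35, edgeR adjusted p = 0.9997). The genes runx2a and runx2b had no counts.

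The factor gene myb (ENSDARG00000053666) varied less between libraries than most of the set. It had 465, 227 and 272 CPM in MTZ, against 491, 95.4 and 285 CPM in DMSO. The highest and the lowest library were both DMSO, and DMSO 2 was lowest, as for lmo2 and tal1. Its log2 fold change was 0.14 ± 0.56, with an interval from -1.13 to 1.42 (edgeR adjusted p = 0.9997), and it changed sign to -0.27 without DMSO 2 and to -0.21 without MTZ 1. The cell-cycle relative mybl2b had 53.5, 22.1 and 7.10 CPM in MTZ, against 136, 28.1 and 15.0 CPM in DMSO, with DMSO 1 highest (log2 fold change -1.12 ± 1.19, edgeR adjusted p = 0.9997). The relative mybl1, a germline factor in mammals, was found in DMSO 1, at 37.2 CPM, and had 1 count or none elsewhere.

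The TALE homeobox gene meis1b (ENSDARG00000012078) was found in all 3 MTZ libraries and in 2 of 3 DMSO libraries. It had 199, 178 and 74.3 CPM in MTZ, against 69.1, 0.0585 and 115 CPM in DMSO, where DMSO 2 held 1 count. DMSO 3 lay above MTZ 3, so the groups overlapped. The mean was 150 ± 66.7 CPM in MTZ and 61.5 ± 58.0 CPM in DMSO (SD, n = 3 each). Between the groups the log2 fold change was 1.29 ± 1.47, the highest of the set, with an interval from -2.07 to 4.65 (edgeR adjusted p = 0.9997), and it was 0.71 without DMSO 2 and 2.12 without DMSO 3. The paralogue meis1a had 180 counts in DMSO 1, 15 in DMSO 3 and none elsewhere. A row named meis2a (ENSDARG00000077840), which the reference gene table calls meis2b, had 1649, 1157 and 1 counts in MTZ and 0, 1 and 0 counts in DMSO, so it was high in the 2 libraries with the most meis1b.

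Homeobox partners of meis1b were uneven. The genes pbx4 and pbx2 were present in all 6 libraries. For pbx4 the values were 68.8, 31.1 and 49.6 CPM in MTZ, against 44.9, 49.9 and 24.7 CPM in DMSO. For pbx2 they were 76.8, 16.9 and 8.94 CPM in MTZ, against 25.4, 41.9 and 36.1 CPM in DMSO. The gene pbx3b had 1, 0 and 0 counts in MTZ, against 12, 207 and 549 counts in DMSO, and was the partner gene of smallest p. The ratio of its pooled DMSO and MTZ rates was 932, and its exact 95% interval, which covers counting error alone, ran from 167 to 36868. The unadjusted p was 0.0177 and the adjusted p 0.9997 with edgeR, whereas DESeq2 called it (adjusted p = 0.00620). The gene hoxa9a had 501 counts in MTZ 2 and 1 count in all the others together.

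The homeobox gene hhex (ENSDARG00000098231) was the least covered factor, with 0, 13 and 77 counts in MTZ and 14, 37 and 0 counts in DMSO. These correspond to 0, 0.804 and 3.82 CPM in MTZ, against 1.09, 2.16 and 0 CPM in DMSO. Each group had 1 library at 0, and MTZ 3 was highest. Its log2 fold change was 0.51 ± 2.33, with an interval from -4.83 to 5.84 (edgeR adjusted p = 0.9997), and it was -1.42 without MTZ 3.

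The repressor gene gfi1aa (ENSDARG00000020746) was present in 3 libraries, 1 of MTZ and 2 of DMSO. It had 1, 1591 and 1 counts in MTZ and 587, 1 and 431 counts in DMSO. In CPM these were 0.0540, 98.4 and 0.0497 in MTZ, against 45.6, 0.0585 and 28.4 in DMSO, so MTZ 2 alone set the MTZ mean. The log2 fold change was 0.41 ± 2.59, with an interval from -5.52 to 6.34 (edgeR adjusted p = 0.9997), and without MTZ 2 it was -8.69. The paralogue gfi1ab (ENSDARG00000044457) was instead found in every library, with 42.0, 10.2 and 53.9 CPM in MTZ, against 10.7, 6.55 and 14.5 CPM in DMSO. Of the 3 libraries in which gfi1aa had 1 count, MTZ 3 and MTZ 1 were the highest for gfi1ab and DMSO 2 was the lowest. For gfi1ab the log2 fold change was 1.74 ± 1.40, with an interval from -1.47 to 4.95 (edgeR adjusted p = 0.9997). The third family member, gfi1b, had 0, 0 and 15.6 CPM in MTZ, against 6.61, 0.526 and 20.5 CPM in DMSO.

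The corepressor genes kdm1a, rcor1 and hdac1, whose products act with Gfi1 proteins in mammals, were present throughout, while rcor2 had no counts. The demethylase gene kdm1a had 29.9, 268 and 98.3 CPM in MTZ, against 156, 11.1 and 218 CPM in DMSO, with DMSO 2 lowest. The genes rcor1 and hdac1 varied little, with log2 fold changes of 0.19 ± 0.33 and -0.11 ± 0.27 (edgeR adjusted p = 0.9997 for both) and 95% intervals from -0.56 to 0.93 and from -0.72 to 0.51.

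**Figure D3:**
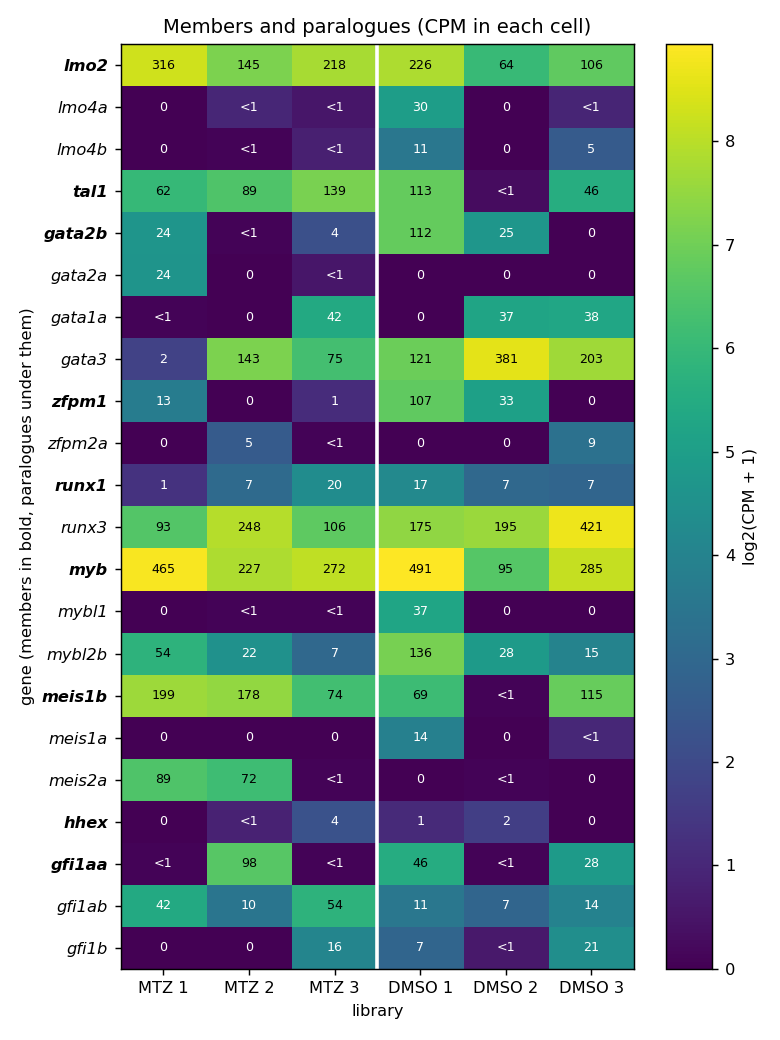
Level of each factor (bold) and its paralogues in each library, coloured by log2(CPM + 1) with the CPM printed in the cell; paralogues with no library above 3 counts are left out, MTZ columns stand left of DMSO columns. The gaps of tal1 and meis1b in DMSO 2, the shared libraries of gata2b and zfpm1, and gfi1ab in all 6 libraries against gfi1aa in 3 can be read across the rows.

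**Figure D4:**
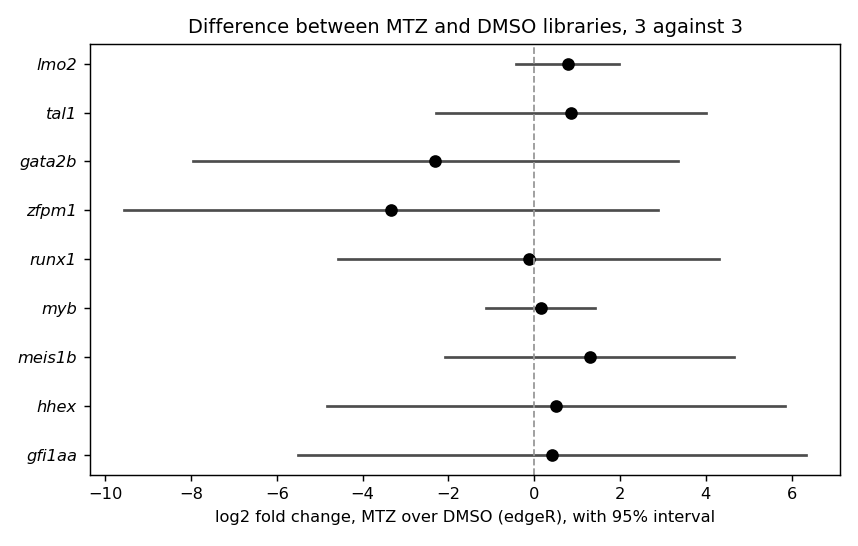
Log2 fold change of each factor, MTZ over DMSO, from edgeR (point) with its 95% interval (line), 3 libraries against 3. Every interval includes 0; the narrowest are those of lmo2 (-0.42 to 1.98) and myb (-1.13 to 1.42), and the widest is that of zfpm1.

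The width of these intervals did not simply follow the spread between libraries of the same group. The SE was 1.94 for runx1, against 1.37 for tal1 and 1.47 for meis1b, whose spread was larger. The within-group SD of log2 CPM, pooled over MTZ and DMSO, was 0.76 for lmo2, 0.93 for myb and 1.41 for runx1. It was 2.39 for hhex, 3.20 for tal1 and 3.71 for meis1b, and it reached 4.40 for zfpm1, 4.45 for gata2b and 4.88 for gfi1aa. The median was 3.20 over the 9 factors and 2.01 over all genes tested, and gfi1aa stood at the 99.4th percentile of the genes tested and lmo2 at the 25.6th. For hhex, tal1, meis1b, zfpm1, gata2b and gfi1aa at least 1 library lay at 4 counts or fewer. Of the 9 factors 4 were above 3 counts in all 6 libraries, against 51.9% of all genes tested, and 1, gfi1aa, was above 3 counts in only 3 libraries, as were 13.8% of the genes tested. In the library where each was highest, tal1, meis1b, zfpm1, gata2b and gfi1aa had between 1375 and 3679 counts, and hhex had 77.

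**Figure D5:**
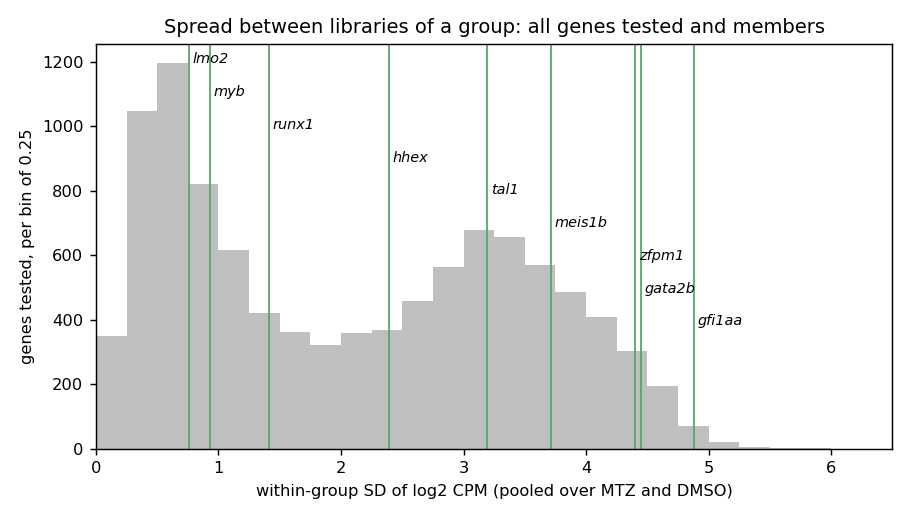
Histogram of the within-group SD of log2 CPM (x axis) over the 10283 genes tested (y axis, genes per bin of 0.25), with lines at the 9 factors. The genes lmo2 and myb lie in the left peak, and zfpm1, gata2b and gfi1aa (4.40 to 4.88) in the right tail.

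Read by library, the set was fullest in DMSO 1. The fewest factors were detected in DMSO 3, and the summed level was lowest in DMSO 2. Above 3 counts were 7, 7 and 8 of the 9 factors in MTZ 1, 2 and 3, against 9, 7 and 6 in DMSO 1, 2 and 3. Of all 27314 rows, those above 0 counts numbered 11680, 11492 and 12649 in MTZ, against 11741, 11729 and 11206 in DMSO. DMSO 3 thus had the fewest detected rows of the whole table as well. The summed level of the factors was 1080, 746 and 732 CPM in MTZ, against 1182, 227 and 588 CPM in DMSO. Without myb and lmo2 it was 299, 374 and 242 CPM in MTZ, against 466, 67.7 and 196 CPM in DMSO. DMSO 2 was the lowest library for 4 factors (lmo2, tal1, myb and meis1b). How many of all genes tested were lowest in DMSO 2 was not counted. Leukocyte markers summed to 11206 CPM there, the highest of the 6 libraries. Its neutrophil markers summed to 147 CPM, against 4408 and 4082 CPM in the other DMSO libraries. MTZ 2 and MTZ 3 were also low in these markers, at 131 and 402 CPM, so this was not particular to DMSO 2. Whether the make-up of the 50 cells bears on the low values of DMSO 2 was not tested.

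In 3 lists of genes around these factors edgeR called none after its filter on low counts. Calls by DESeq2 and by edgeR with all genes kept were read only for the 2 genes of smallest p in each list. Of those genes, DESeq2 called pbx3b and fli1a, and edgeR with all genes kept called fli1a. Of 20 rows of paralogues, 8 were tested, 1 higher and 7 lower in MTZ by sign (median log2 fold change -0.97). The 2 of smallest p were runx3 and gata3. Of 20 partner genes, 16 were tested, 12 higher and 4 lower, with a median of 0.38, and after pbx3b the smallest p belonged to the acetyltransferase gene ep300b, with 0.108, 56.0 and 22.7 CPM in MTZ, against 4.98, 0.175 and 0.132 CPM in DMSO. Of 20 rows of other stem and progenitor factors, 11 were tested, 8 higher and 3 lower, with a median of 0.84. At an unadjusted p under 0.05 there were 0, 1 and 2 genes of these lists in edgeR, against 3.18% of all genes tested.

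Among those other factors, fli1a and nfe2 were higher in every MTZ library than in every DMSO library, a separation that 10.8% of the genes tested showed in one direction or the other. The ETS factor gene fli1a had 283, 668 and 373 CPM in MTZ, against 140, 41.6 and 115 CPM in DMSO (log2 fold change 2.16 ± 0.52, edgeR unadjusted p = 0.00294, adjusted p = 0.9997, DESeq2 adjusted p = 0.0118). It passed the threshold in edgeR when no genes of low count were removed (adjusted p = 0.000718). The thrombocyte and erythroid factor gene nfe2 (ENSDARG00000020606) had 109, 101 and 151 CPM in MTZ, against 20.1, 44.2 and 26.1 CPM in DMSO (log2 fold change 1.997 ± 0.59, edgeR adjusted p = 0.9997, DESeq2 adjusted p = 0.0694). Neither gene was a member of the set, and that they differ from it was not tested.

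Of 14 rows of surface and signalling genes of stem and progenitor cells, 8 were tested, 5 higher and 3 lower (median log2 fold change 0.42), 0 called by edgeR and 2 at an unadjusted p under 0.05 (3.18% of all genes tested). The receptor gene kita, a stem cell marker in mammals and a pigment cell receptor in zebrafish, had 43 counts in DMSO 1 and none elsewhere, and kitb and flt3 had none. The thrombopoietin receptor gene mpl had 84.5, 0 and 61.8 CPM in MTZ, against 0, 0 and 33.3 CPM in DMSO. The 2 genes of smallest p were itga2b and ENSDARG00000095268. For itga2b the values were 72.2, 69.2 and 48.0 CPM in MTZ, against 1.87, 0.0585 and 0.132 CPM in DMSO (edgeR adjusted p = 0.9997, DESeq2 adjusted p = 0.000250). The row ENSDARG00000095268 is named si:dkey-261h17.1 in the table and cd34, a stem cell surface protein in mammals, in the reference gene table. It had 565, 481 and 518 CPM in MTZ, against 426, 208 and 268 CPM in DMSO, with no overlap (log2 fold change 0.79 ± 0.31, edgeR unadjusted p = 0.0320, adjusted p = 0.9997). Thrombocyte markers, which include itga2b, mpl and nfe2, summed to 351, 238 and 268 CPM in MTZ, against 42.5, 194 and 104 CPM in DMSO, while vwf was at 0 throughout and gp1bb under 1 CPM. Other genes of that list did not follow the sum. The gene gp9 had 0, 5.94 and 5.61 CPM in MTZ, against 17.3, 19.4 and 24.7 CPM in DMSO, and thbs1b had 61.1 CPM in MTZ 2, 114 CPM in DMSO 2 and at most 0.108 CPM elsewhere. The part of thrombocytes in these values was not tested.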

How the data were processed

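The authors deposited estimated counts for each gene in 1 table, without scaling between libraries. The submitters' processing notes name HISAT2 and the GRCz11 build. The counting tool, its strand handling, the gene annotation and all versions were not given in the sources used here, so overlapping genes and close paralogues are uncertain. The unit was read from the values (of the values above 0 in a library, 8.31% to 9.90% had decimals), and counts were rounded. Of the rows, 25116 had an Ensembl ID and 2198 an MSTRG ID; the 1913 without a symbol took 1.60% to 5.21% of a library's counts and stayed in the totals and the test. Symbols came from the table, with a reference table of gene IDs for list genes only.

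MTZ was compared with DMSO by the quasi-likelihood test of edgeR 4.0.16 (R 4.3.3, two-sided; TMM factors, default filter with a minimum count of 10, group alone), with Benjamini-Hochberg adjustment over the 10283 genes tested and a threshold of 0.05. SEs are the size of the log2 fold change over the square root of F, and 95% intervals use the test's degrees of freedom. Log2 CPM used a prior count of 2. DESeq2 1.42.0 and limma 3.58.1 (voom) were alternatives. The test was also run on simulated counts, with less spread between libraries than in these data. That run therefore does not show how the test behaves here. Intervals on counts cover counting error only. The members and lists were chosen with earlier results of these data known. Named beyond the members were the 2 tested genes of smallest p in each related list, paralogues, and abundant or defining markers; other partner and list genes were chosen after their values were seen.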

Additional observations from a re-analysis of the deposited data

How the results depend on the processing

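None of the 9 factors was called, wherever it was tested, under the 16 alternatives tried (other tools, scalings, filters, robust dispersion, thinned counts, a replicate block and each library left out). Over all genes, edgeR called 0, against 52 without a filter on low counts and 130 with DESeq2 (73 higher and 57 lower in MTZ). The median log2 fold change of the factors was 0.41 and lay between -0.16 and 0.77 with a library left out. With the replicate number as a block it was -0.47, with hhex at -1.18 and gfi1aa at -7.36, and 0 genes were called. Same-numbered libraries did not deviate together (correlations over genes of -0.0079, -0.00083 and -0.046). Such a correlation can miss a shared pool or day, so whether the numbers pair the libraries is not known. Limma voom put the median at 0.03, gfi1aa at -2.36, tal1 at 3.44 and meis1b at 4.27. With a library left out, runx1 ranged from -1.23 to 0.48, myb from -0.27 to 0.77, hhex from -1.42 to 1.51 and gfi1aa from -8.69 to 1.22. The cause of these reversals was not tested. For single factors 130 alternative values kept the sign and 12 turned it, and the filter of 10 CPM in 3 libraries left 7 of the 9 to test. At 3 libraries a group and a common biological coefficient of variation of 1.42, the intervals above bound what could be seen.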
